A study of Mus musculus with 93 samples.

Results

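The Six-, Eya- and Dach-family genes described here were a listed set of 8 family members, Six2, Six4, Six5, Eya1, Eya2, Eya3, Eya4 and Dach1, out of 24514 genes in the count table. The rule lists them by name and uses no measured value, although the list was drawn up with earlier results of these data known. All 8 were present in the table, and each was followed as CPM (reads scaled to a library total of 1000000, with totals adjusted by the trimmed mean of M values, TMM) across 4 groups of sorted mouse cells. The embryos carried 3 alleles together, Hcn4-GFP, Tbx1-Cre and Ai9. GFP reported current Hcn4 activity, whereas RFP came from the Ai9 reporter after Cre recombination and therefore marked cells with a history of Tbx1-Cre activity. In vivo GFP+ and RFP+ cells were sorted from dissected embryo regions, and their titles name day E8.5 whereas the protocol gives E7.75. In vitro GFP+ and RFP+ cells came from spheroids of 1 embryonic stem cell (ESC) line with the same 3 alleles, sorted at day 5.5 of differentiation. There were 5 in vivo GFP+, 4 in vivo RFP+, 38 in vitro GFP+ and 46 in vitro RFP+ libraries, each made from 10 cells in 1 plate well. The labels did not tie wells to embryos, litters or separate differentiations, so every p-value measures the spread between wells, which may be technical.

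Six-family proteins are homeodomain factors that bind DNA, and Eya proteins are coactivators that carry a phosphatase domain and join them on their targets. Dach proteins belong to the Ski and Sno family and act mainly as corepressors in the same network. The network is known for its roles in kidney, ear, placode and skeletal muscle formation, and Six-family and Eya genes are also used in pharyngeal progenitors that contribute to the outflow tract.

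Library totals ran from 712732 to 2525460 reads in vivo, and from 445071 to 5658882 in vitro apart from 1 GFP+ library (well C9) of 6288 reads. In that library 3 reads equal 220 CPM and no member had a read, so it was left out of the levels below (n = 37) and kept in the fits. Hcn4 ranged from 1.07 to 33.3 CPM in vivo GFP+ and from 0 to 1.43 CPM in vivo RFP+, and in vitro its median was 7.72 CPM in GFP+ and 0 in RFP+ libraries. Tbx1 had no read in any in vivo GFP+ library and ranged from 0 to 8.60 CPM in vivo RFP+, with in vitro medians of 0 in GFP+ and 2.44 CPM in RFP+ cells. By their medians both reporter genes followed the labels in both sources. Genes with at least 1 read numbered 6189 to 8302 per in vivo GFP+ library and 10263 to 13052 per in vivo RFP+ library, ranges that did not overlap. In these bulk wells, fewer cells expressing a gene and less RNA per cell cannot be told apart.

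RFP+ and GFP+ cells were compared within each source to ask how far the network separated the Tbx1-Cre lineage from Hcn4-expressing cells. In vivo, Six2 and Six4 were higher in RFP+ cells, and no member was called lower, Eya3 being nearest with an unadjusted p of 0.0451 by edgeR and a call by DESeq2. In vitro, Six2, Eya2 and Dach1 were higher in RFP+ cells and Eya3 was lower, while Six4 and Eya1 were not called. By edgeR's quasi-likelihood test with Benjamini-Hochberg adjustment over all genes and a threshold of 0.1, 2 of the 5 members that passed the filter on low counts were called in vivo, where 10.1% of all 8503 tested genes were called, 6.21% higher in RFP+ and 3.88% lower. In vitro 4 of 6 were called, 3 higher and 1 lower, where 77.9% of all 9940 tested genes were called, 37.8% higher and 40.1% lower. A call in vitro alone therefore separated these members little from genes in general. The in vitro RFP+ wells lay in plate columns 1 to 6 and the GFP+ wells in columns 7 to 11, so reporter and plate position cannot be told apart. In vivo the GFP+ wells lay in rows A to E and the RFP+ wells in rows F to H, so the same holds there. The in vivo GFP+ wells lay in column 12 and the RFP+ wells in columns 11 and 12. Within each reporter, source and plate column therefore cannot be told apart either. Six2 and Six4 passed the in vivo filter through their RFP+ reads, with 2 reads each in all GFP+ libraries together. Eya1 did so too, as 145 of its 146 GFP+ reads lay in well B12. Six2 and Eya2 likewise passed in vitro through RFP+ reads, both with a GFP+ median of 0. In the GFP+ source comparison Six4 and Eya1 passed through their in vitro reads. Eya2 and Eya4 did the same in the RFP+ source comparison. These members were thus tested only because of the group in which they were high, and their p-values carry that selection. Members under the filter were Six5, Eya2 and Eya4 in vivo, and Six5 and Eya4 in vitro, and they enter no count of calls.

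**Figure D1:**
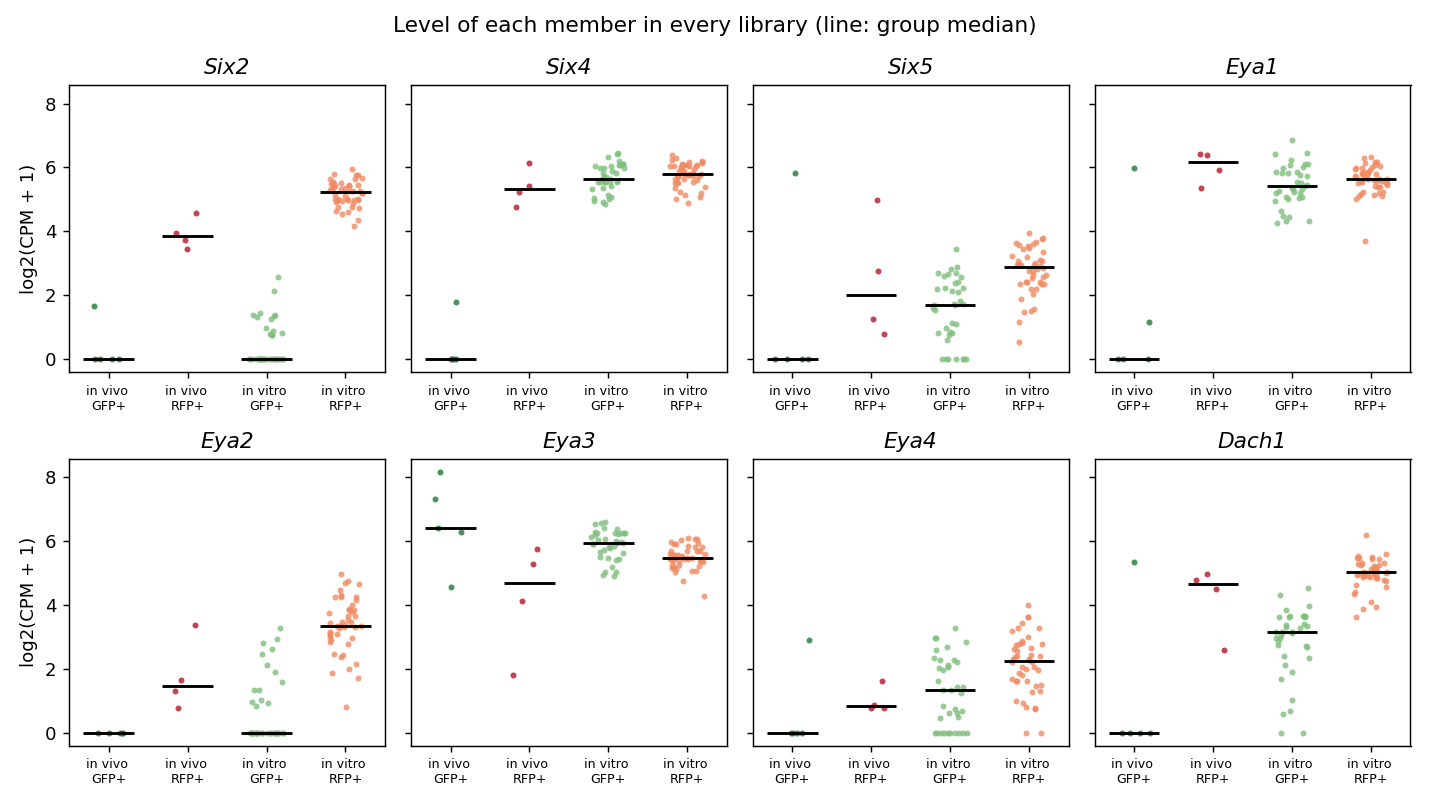
Level of each of the 8 members in every library as log2(CPM + 1), with 1 point per 10-cell library and a line at the group median. Six2 is above all GFP+ libraries in both RFP+ groups, whereas Six4 is near 0 only in the 5 in vivo GFP+ libraries.

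Six2, a homeodomain factor best known for keeping kidney progenitors undifferentiated, lies at chr17:85684277-85688274 on the minus strand (GRCm38). It had 2 reads in 1 in vivo GFP+ library (well A12, 2.15 CPM) and none in the other four. In the 4 in vivo RFP+ libraries it measured 12.4, 9.84, 14.4 and 22.9 CPM, a mean of 14.9 ± 5.68 (SD, n = 4). All RFP+ libraries were therefore above all GFP+ libraries. Groups did not overlap for 17.3% of all genes tested in vivo. The log2 fold change was 4.98 (SE 1.42, edgeR adjusted p = 0.0498), and the exact two-sided permutation test gave p = 0.00794, the smallest that 126 splits allow. Summed reads gave a ratio of 53.0 with an exact 95% interval of 14.2 to 445, which covers counting error only. In vitro the same order was seen with far more libraries. Six2 had reads in 14 of 37 GFP+ libraries, at 0 at the lowest and the median and 4.97 CPM at the highest, and in all 46 RFP+ libraries, from 16.9 through a median of 36.7 to 60.5 CPM. The in vitro ranges did not overlap either, as for 3.26% of all genes tested. The log2 fold change was 5.73 (SE 0.29, edgeR adjusted p = 5.58e-40). Between RFP+ cells of the 2 sources, Six2 was higher in vitro by 1.27 on the log2 scale (SE 0.24, edgeR adjusted p = 4.83e-05), although its ranges met, with in vivo values reaching 22.9 and in vitro values starting at 16.9 CPM. Medians by plate column ran from 30.6 to 40.2 CPM among the RFP+ columns and from 0 to 0.415 CPM among the GFP+ columns.

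Six4, a related homeodomain factor that acts in muscle precursors, lies at chr12:73099609-73113456 on the minus strand. It had 2 reads in 1 in vivo GFP+ library (well C12, 2.48 CPM) and none in the others. The 4 in vivo RFP+ libraries measured 36.4, 69.6, 26.2 and 42.3 CPM, a mean of 43.6 ± 18.5 (SD, n = 4). The groups again did not overlap. The log2 fold change of 6.36 (SE 1.67, edgeR adjusted p = 0.0474) became 8.99 without GFP+ well C12, which held both GFP+ reads. With no GFP+ read left, the size of 8.99 is not a measured ratio. The exact permutation test again gave p = 0.00794. In vitro, Six4 was present in every library of both reporters. GFP+ libraries ranged from 27.7 through a median of 49.2 to 87.3 CPM, and RFP+ libraries from 28.9 through 54.5 to 82.8 CPM. The in vitro log2 fold change was 0.05 (SE 0.09, edgeR adjusted p = 0.577), so a reporter difference was not detected at an SE well below 1 log2 unit. Every in vitro GFP+ library was above every in vivo GFP+ library, groups that did not overlap for 16.0% of genes tested, with a log2 fold change of 7.26 (SE 0.81, edgeR adjusted p = 7.43e-16). The median number of genes with reads was 6830 in in vivo and 13689 in in vitro GFP+ libraries, and its part in this difference was not tested. Between the RFP+ groups the difference of 0.33 (SE 0.20, edgeR adjusted p = 0.208) did not pass.

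Six5, whose human counterpart lies beside the myotonic dystrophy gene DMPK, lies at chr7:19094594-19098549 on the plus strand. In vivo GFP+ reads came from 1 library, with 52 reads or 56.0 CPM in well A12 and 0 in the other four. The in vivo RFP+ libraries measured 5.83, 1.41, 30.4 and 0.716 CPM. The highest single value was thus in a GFP+ well although every RFP+ well had a read, and the exact permutation p was 0.46. In vitro, Six5 ran from 0 through a median of 2.26 to 9.94 CPM in GFP+ libraries and in RFP+ libraries from 0.433 through 6.39 to 14.3 CPM. The in vitro permutation test over 100000 resamples gave its smallest possible p of 1e-05 for a mean log2 CPM difference of 1.19, with overlapping ranges. Without the filter on low counts edgeR gave 1.27 (SE 0.27, edgeR adjusted p = 2.15e-05).

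Promoter windows in the RefSeq-based table (GRCm38.p6), 250 bases before and 50 after each start, were matched for 6 of the 8 members, and Eya1 and Eya2 had no entry. Six2, Six4 and Dach1 are printed because they held the only matches among members to 3 motifs and show different reporter patterns. Capitals mark the matches, with both strands searched and each window written 5′ to 3′ on the gene's own strand. The motifs chosen, after the values were known, were the MEF3 element bound by Six-family proteins, with letters TCAGGTT, the element of GATA factors, with letters AGATAA, and that of TCF/LEF factors, with letters CTTTGAT, and no matches overlapped in these windows.
Six2 chr17:85688205-85688504, minus strand: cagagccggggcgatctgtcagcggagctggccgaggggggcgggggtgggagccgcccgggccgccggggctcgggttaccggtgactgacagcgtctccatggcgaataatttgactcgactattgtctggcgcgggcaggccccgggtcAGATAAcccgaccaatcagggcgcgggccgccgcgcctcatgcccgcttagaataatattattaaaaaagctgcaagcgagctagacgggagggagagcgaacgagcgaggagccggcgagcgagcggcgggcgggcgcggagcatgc
Six4 chr12:73113196-73113495, minus strand: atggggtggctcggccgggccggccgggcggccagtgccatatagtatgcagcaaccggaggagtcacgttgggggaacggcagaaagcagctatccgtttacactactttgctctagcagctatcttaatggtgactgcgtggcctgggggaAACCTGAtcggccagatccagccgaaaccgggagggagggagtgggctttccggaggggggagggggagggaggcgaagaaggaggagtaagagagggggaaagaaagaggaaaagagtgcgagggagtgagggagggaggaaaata
Dach1 chr14:98169716-98170015, minus strand: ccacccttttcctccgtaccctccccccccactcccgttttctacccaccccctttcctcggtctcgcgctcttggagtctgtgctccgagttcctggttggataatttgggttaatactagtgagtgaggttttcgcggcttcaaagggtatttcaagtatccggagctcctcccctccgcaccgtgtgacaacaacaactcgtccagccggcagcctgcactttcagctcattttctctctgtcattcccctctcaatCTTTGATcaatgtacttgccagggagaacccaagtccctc
The Six2 window held AGATAA with its first letter 98 bases before the start, a motif present in 12.7% of 27025 genes with a window. The Six4 window held AACCTGA, the reverse complement of the MEF3 letters, beginning 97 bases before the start, and 4.73% of genes held that motif. The second Six4 start had no match. The Dach1 window held CTTTGAT from position 11, counting the start as 1, as 4.29% of genes did. A match describes letters in the window and is neither a binding site nor a cause of the levels.

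Eya1, a coactivator whose loss disturbs ear and kidney formation, lies at chr1:14168954-14310235 on the minus strand. In vivo GFP+ libraries measured 0, 62.7, 1.24, 0 and 0 CPM, so 145 of 146 reads came from well B12. In vivo RFP+ libraries measured 59.7, 83.6, 85.3 and 40.1 CPM. The groups overlapped only through well B12. The log2 fold change of 2.35 (SE 1.76, edgeR adjusted p = 0.675) did not pass, and the exact permutation test gave p = 0.0317. Without well B12 the fold change was 7.54 (SE 1.66, edgeR adjusted p = 0.0162), so 1 library decided the edgeR call. That fit had 1 GFP+ read left and tested Eya1 through its RFP+ reads, a selection its p-value carries. In vitro, Eya1 was present in every library, from 18.1 through a median of 42.0 to 114 CPM in GFP+ and in RFP+ from 12.1 through 48.9 to 80.2 CPM. The in vitro difference of 0.07 (SE 0.11, edgeR adjusted p = 0.565) did not pass. Eya1 was 1.86 higher on the log2 scale in vitro than in vivo among GFP+ cells (SE 0.54, edgeR adjusted p = 0.00617), but 7.49 without well B12, and limma voom did not call it (adjusted p = 0.268). Among RFP+ cells it was lower in vitro by a log2 fold change of -0.43 (SE 0.21, edgeR adjusted p = 0.0971), a call lost under 9 of 12 alternatives, TMMwsp (0.103) and total counts (0.153) among them.

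Eya2, a coactivator of the same family used in muscle and placode precursors, lies at chr2:165595032-165771727 on the plus strand. No in vivo GFP+ library held a read. The in vivo RFP+ libraries held 2, 1, 11 and 3 reads, or 1.46, 0.703, 9.29 and 2.15 CPM. Every RFP+ library was above every GFP+ library, with an exact permutation p of 0.00794, but the counts were low. Against a floor of 3 reads per GFP+ library, a mean of 2.57 CPM, the RFP+ mean of 3.40 CPM was at least 1.32-fold higher. That bound rested on well G12, since the mean of the other 3 RFP+ libraries, 1.44 CPM, lay below the floor. The in vitro GFP+ libraries had a lowest value and a median of 0 and a highest value of 8.72 CPM, and RFP+ libraries ran from 0.738 through 9.23 to 30.5 CPM. The in vitro log2 fold change was 2.95 (SE 0.34, edgeR adjusted p = 1.43e-13). RFP+ cells in vitro exceeded those in vivo by 1.73 (SE 0.56, edgeR adjusted p = 0.0154). The value was 2.90 without well G12, and limma voom did not call it (adjusted p = 0.267).

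Eya3, the family member most widely used across tissues, lies at chr4:132638987-132724765 on the plus strand. It was the only member with reads in all 5 in vivo GFP+ libraries, at 289, 77.4, 159, 84.1 and 22.5 CPM. In vivo RFP+ libraries measured 53.2, 37.9, 2.53 and 16.5 CPM. Both groups varied widely and overlapped, the GFP+ well E12 falling inside the RFP+ range. The log2 fold change of -2.22 (SE 0.94, edgeR adjusted p = 0.289) did not pass, and the exact permutation p was 0.0635. In vitro, Eya3 ran from 28.9 through a median of 61.1 to 96.3 CPM in GFP+ libraries and in RFP+ libraries from 18.3 through 43.7 to 67.5 CPM. This was the only member called lower in RFP+ cells in vitro, by a log2 fold change of -0.44 (SE 0.09, edgeR adjusted p = 6.81e-06), with overlapping ranges. The permutation test in vitro gave p = 0.149 with the 6288-read library and p = 9e-05 without it, an alternative chosen after seeing the data. Across sources Eya3 was lower in vitro among GFP+ cells (log2 fold change -0.88, SE 0.29, edgeR adjusted p = 0.00385) and higher in vitro among RFP+ cells (0.71, SE 0.25, edgeR adjusted p = 0.0291). Leaving out GFP+ well A12 ended the first call (-0.39, edgeR adjusted p = 0.215). Leaving out RFP+ well G12 or H11 ended the second (0.35 and 0.53, edgeR adjusted p = 0.282 and 0.159).

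Eya4, a coactivator known for its roles in hearing and heart muscle, lies at chr10:23102963-23350786 on the minus strand. In vivo GFP+ reads came from well D12 alone, with 14 reads or 6.54 CPM. In vivo RFP+ libraries held 1, 3, 1 and 1 reads, or 0.729, 2.11, 0.844 and 0.716 CPM, too few to order the groups, and the exact permutation p was 0.556. Eya4 stayed low in vitro, from 0 through a median of 1.54 to 8.78 CPM in GFP+ libraries and in RFP+ libraries from 0 through 3.73 to 14.9 CPM. The in vitro permutation p was 0.0002 for a mean log2 CPM difference of 0.83, and without the filter edgeR gave 0.97 (SE 0.33, edgeR adjusted p = 0.00873). RFP+ cells in vitro exceeded those in vivo by 1.87 (SE 0.79, edgeR adjusted p = 0.0522).

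Dach1, the corepressor of the set, lies at chr14:97786853-98169765 on the minus strand. In vivo GFP+ reads came from 1 library, 85 reads or 39.7 CPM in well D12, the same well that held the Eya4 reads. In vivo RFP+ libraries measured 21.9, 26.7, 5.07 and 30.1 CPM. The RFP+ values were all above the other four GFP+ libraries and below well D12. The log2 fold change of 1.36 (SE 1.86, edgeR adjusted p = 0.876) did not pass, and the exact permutation p was 0.0794. Without well D12 Dach1 fell under the filter in the in vivo comparison. In vitro, Dach1 ran from 0 through a median of 7.88 to 22.4 CPM in GFP+ libraries and in RFP+ libraries from 11.3 through 31.5 to 71.5 CPM. The in vitro log2 fold change was 2.02 (SE 0.17, edgeR adjusted p = 8.09e-19), with ranges overlapping between 11.3 and 22.4 CPM. RFP+ cells in vitro exceeded those in vivo by 0.60 (SE 0.27, edgeR adjusted p = 0.0786), and GFP+ cells differed by 0.06 (SE 0.74, edgeR adjusted p = 0.948).

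**Figure D2:**
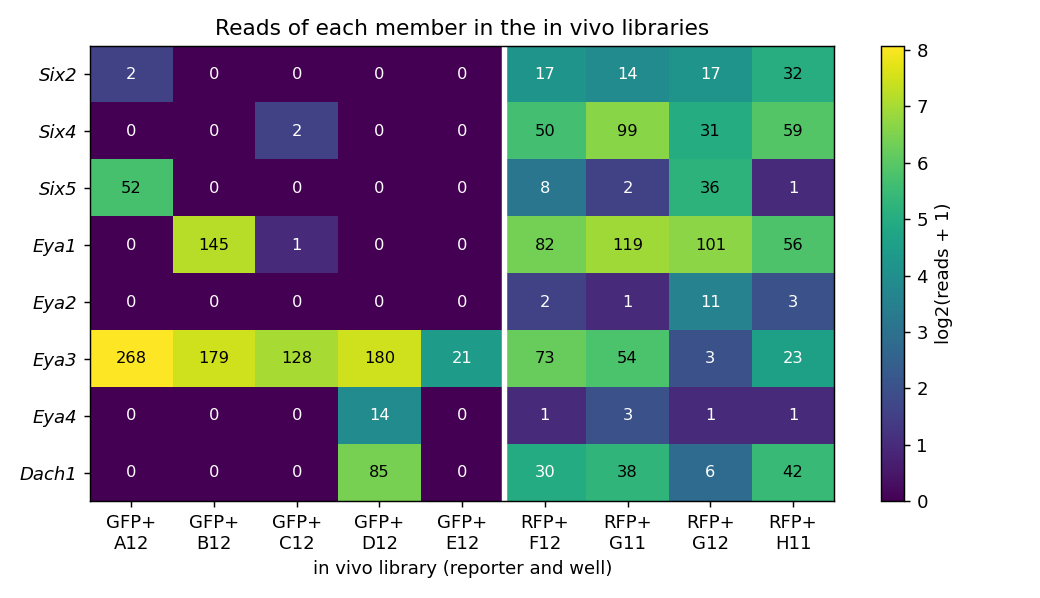
Reads of the 8 members in the 9 in vivo libraries, with the numbers printed in each cell and colour giving log2(reads + 1). In the GFP+ libraries, Six5, Eya1, Eya4 and Dach1 reads sit almost wholly in single wells, and only Eya3 has reads in all 5.

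The plot of in vivo reads shows how GFP+ levels of several members rested on single wells. For 5 of the 8 members, reads were present in exactly 1 of the 5 GFP+ libraries, and 2 of these 5, Six5 and Eya4, did not pass the filter. Among the 8503 genes that passed it, 7.14% had reads in exactly 1 GFP+ library, a share that does not cover genes under the filter. The reads of the 5 members fell in 3 wells, with Six2 and Six5 in A12, Six4 in C12, and Eya4 and Dach1 in D12. At 10 cells per library, a level in 1 well of 5 gives no estimate of how often a cell in the group used the gene.

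**Figure D3:**
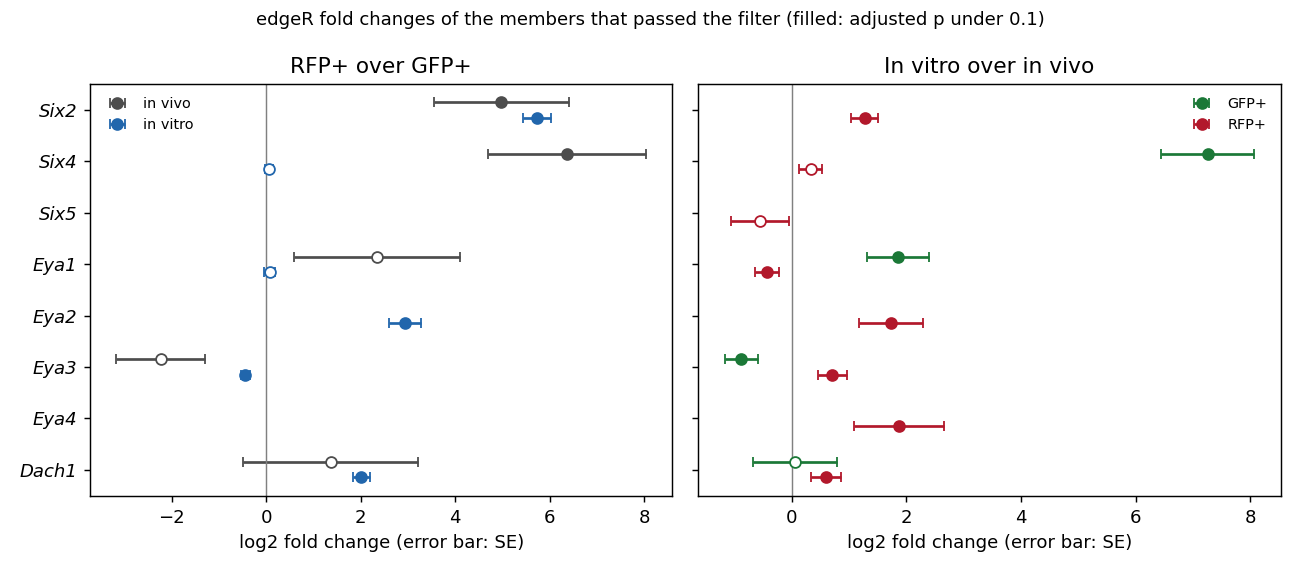
edgeR log2 fold changes with SE for the members that passed the filter, RFP+ over GFP+ on the left and in vitro over in vivo on the right. Filled points have an adjusted p under 0.1. In vivo bars are wide, and Six4 is far from 0 in vivo and near 0 in vitro.

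Whether the reporter difference itself changed between sources was tested per member. By the difference of the 2 log2 fold changes over their own SEs, none of the 5 members tested in both sources passed at an adjusted p of 0.1, where 5.68% of 8182 genes did. Six4 came nearest, with an in vitro fold change 6.31 lower on the log2 scale than the in vivo one (difference -6.31, SE 1.67, unadjusted p = 0.00687 and adjusted p = 0.113 over edgeR estimates). It was the only member of the 5 with an unadjusted p under 0.05. Leaving out GFP+ well A12, B12, C12 or D12 gave Six4 an adjusted p between 0.0332 and 0.0953 from the edgeR estimates. The lowest, 0.0332, came without C12, where no GFP+ read was left. Leaving out E12 or any RFP+ well did not bring Six4 under 0.1. Without B12, Eya1 also came under 0.1 (difference -7.47, SE 1.67, adjusted p = 0.0499 over edgeR estimates), with 1 GFP+ read left. An interaction term in 1 edgeR fit called Six4, Eya1 and Eya3, where it called 54.4% of 12655 genes. For Six2 the difference was 0.75 (SE 1.45) and for Dach1 0.65 (SE 1.86), both smaller than their SEs.

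The same libraries served the reporter and source comparisons, so the source calls are not independent of those above. Among GFP+ cells, 3 of 4 members tested were called (Six4 and Eya1 higher in vitro, Eya3 lower), where 68.0% of 11822 genes were called, 48.3% higher and 19.7% lower, and the median log2 fold change over all genes was 0.67. With DESeq2 size factors that median was 0.22, so GFP+ source differences are relative to a shift that depends on scaling. Among RFP+ cells, 6 of 8 members were called (Six2, Eya2, Eya3, Eya4 and Dach1 higher in vitro, Eya1 lower), where 42.6% of 11147 genes were called, 22.5% higher and 20.1% lower. No member had RFP+ ranges that did not overlap between sources, as 4.55% of genes had. Of these 6, Six2 and Eya2 kept their calls with each in vivo RFP+ library left out in turn (Eya2 edgeR adjusted p from 0.00158 to 0.0855). Eya1, Eya3, Eya4 and Dach1 each lost theirs at least once. Eya2 and Eya4 passed the filter here through their in vitro reads, as Six4 and Eya1 did among GFP+ cells. Their p-values carry that selection.

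**Figure D4:**
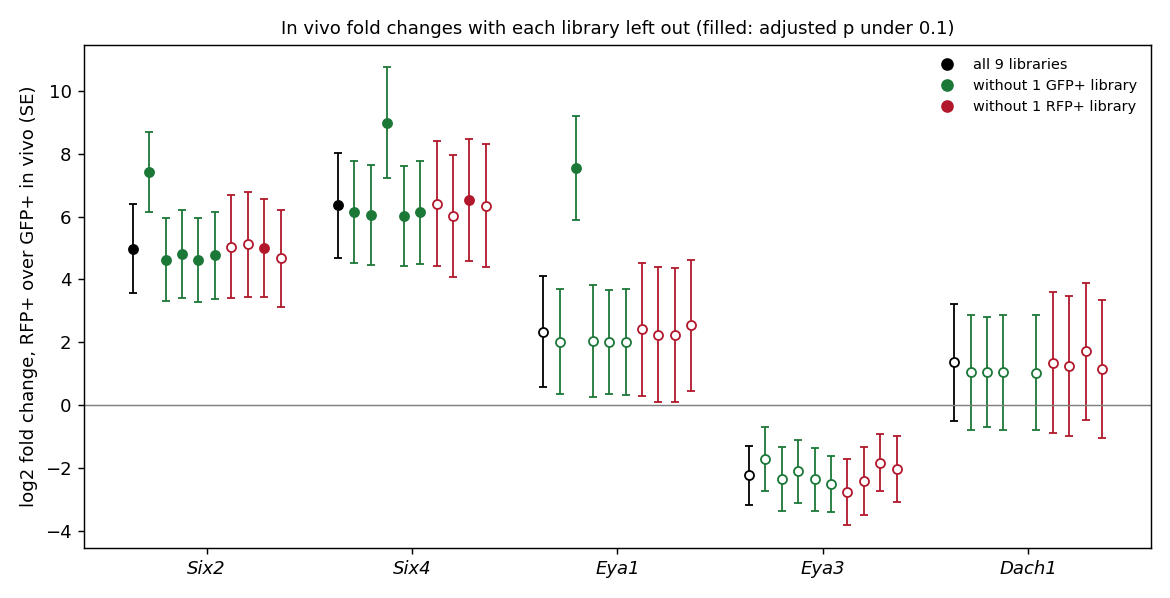
In vivo RFP+ over GFP+ log2 fold changes with SE for the 5 members tested, with all 9 libraries (black) and with each GFP+ (green) or RFP+ (red) library left out. Filled points have an adjusted p under 0.1. The direction holds for each member, but the Six2 and Six4 calls are lost without RFP+ well F12, G11 or H11.

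The plot of left-out libraries bears on the in vivo calls. Without RFP+ well F12, G11 or H11 the edgeR adjusted p was 0.103, 0.117 and 0.112 for Six2 and 0.111, 0.135 and 0.12 for Six4, with fold changes from 4.68 to 6.41. With G12 left out both were called (edgeR adjusted p = 0.0772 and 0.093). Without the filter on low counts Six2 was not called (5.00, edgeR adjusted p = 0.109) and Eya2 was (5.31, edgeR adjusted p = 0.0835). As Eya2 had no GFP+ read, the size of 5.31 is not a measured ratio.

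Per kilobase of exon, Eya3 was the highest member in both GFP+ groups, at a mean of 22.4 CPM per kb in vivo and 10.8 CPM per kb in vitro. Eya1 led in vivo RFP+ cells at 8.61 CPM per kb, ahead of Six2 at 7.02, and Six2 led in vitro RFP+ cells at 17.3 ahead of Eya3 at 8.11. Eya4 was lowest in both RFP+ groups and in vitro GFP+ cells, at 0.117 to 0.457 CPM per kb. The group order within a gene was set by ranges that mostly overlapped. Only in vivo RFP+ against in vitro GFP+ for Six2 and in vivo RFP+ against in vivo GFP+ for Six4 were neighbours in mean level whose ranges did not overlap.

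**Figure D5:**
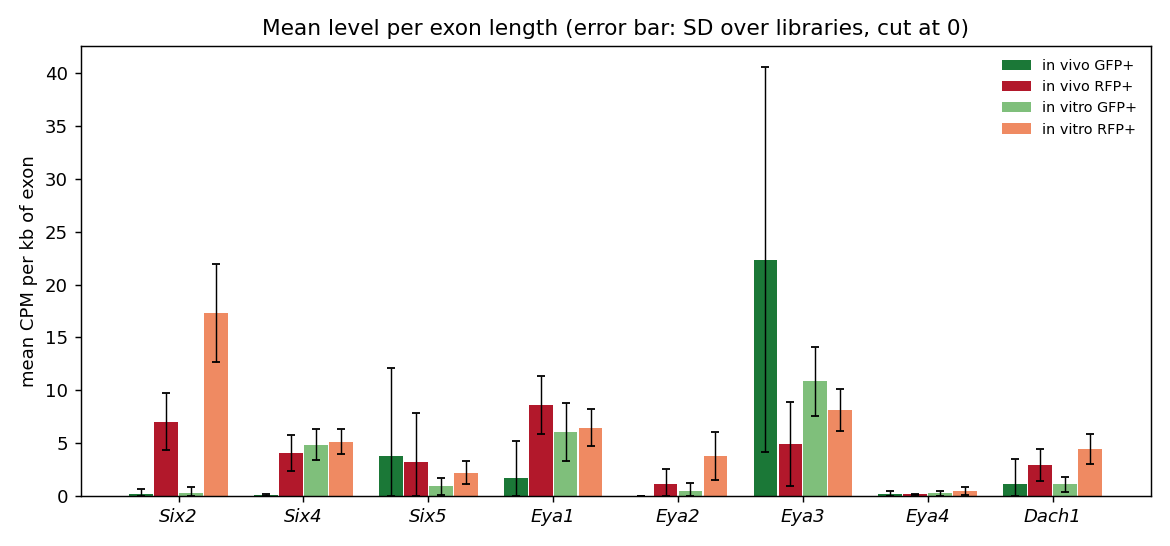
Mean CPM per kb of exon for each member in the 4 groups, with error bars of 1 SD over libraries. Eya3 is highest in GFP+ cells of both sources, Six2 in in vitro RFP+ cells, and Eya4 is below 0.5 throughout.

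Several marker lists of other cells differed between the reporters, not always the same way in both sources. Their part in the member differences was not tested. The 8-gene paraxial mesoderm and somite list had reads for 1 gene in in vivo GFP+ libraries, with Meox1, Meox2, Tcf15, Pax1, Pax3, Uncx and Ripply2 at 0, and summed to 0 to 31.1 CPM, against 51.3 to 97.9 CPM and 7 genes in in vivo RFP+ libraries. In vitro its sums were 0.527 to 56.4 CPM in GFP+ and 85.1 to 266 CPM in RFP+ libraries, also without overlap. The 7-gene endoderm list, Sox17 and Foxa2 included, was at 0 in every in vivo GFP+ library and summed to 22.9 to 676 CPM in RFP+ ones. In vitro the endoderm medians ran the other way, 390 CPM in GFP+ and 215 CPM in RFP+ libraries, with overlapping ranges. The 8-gene cardiomyocyte list was higher in GFP+ libraries in vivo, from 17517 to 51513 CPM, against 1164 to 2148 CPM in RFP+ libraries. In vitro its sums were 19.6 to 1245 CPM in GFP+ and 12.6 to 129 CPM in RFP+ libraries, with similar medians of 53.9 and 58.2 CPM. The 8-gene second heart field and pharyngeal list summed to 68.4 to 286 CPM in vivo GFP+ and 209 to 383 CPM in vivo RFP+, ranges that overlapped, and the 4-gene first heart field list to 138 to 481 and 0 to 23.3 CPM. The 4-gene neural crest list summed to 0 to 189 CPM in vivo GFP+ and to at most 91.1 CPM in vivo RFP+, with Foxd3 at 0 in both in vivo groups, Sox10 and Tfap2b also at 0 in GFP+ libraries, and Ets1 as the gene with GFP+ reads. The 6-gene surface ectoderm list summed to 0 to 7.54 CPM in vivo GFP+ and 12.2 to 79.4 CPM in vivo RFP+. In vitro its median sums were 9.65 CPM in GFP+ and 9.16 CPM in RFP+ libraries. In the same order, in vitro medians were 51.5 and 4.28 CPM for the first heart field list and 90.6 and 115 CPM for the second heart field list. They were 42.2 and 25.9 CPM for neural crest and 9.72 and 21.4 CPM for endothelium. In vivo the 5-gene endothelial list summed to 0 to 89.3 CPM in GFP+ and 55.7 to 226 CPM in RFP+, and the 5-gene blood list to 0 to 1.07 and 0 to 766 CPM. The 6-gene pluripotency list summed to at most 3.64 CPM in vivo and to 57.7 to 1585 CPM in vitro GFP+ against 6.33 to 560 CPM in vitro RFP+.

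Of 41 further genes of the network, fixed as Pax partners, cofactors, described downstream genes and 3 relatives, 20 were tested in each source. In vivo 1 was called, higher in RFP+, beside 10.1% of all genes, and in vitro 11 were higher and 6 lower. By edgeR with its filter, only H2afx, the histone variant whose phosphorylated tail Eya proteins can dephosphorylate, was called in both. Its values were 2.98 in vivo (SE 0.63, edgeR adjusted p = 0.0132) and 0.97 in vitro (SE 0.10, edgeR adjusted p = 9.35e-16). Its levels were 10.7 to 36.6 CPM in vivo GFP+ and 149 to 245 CPM in vivo RFP+, with no overlap. DESeq2 called Pax3, Sall1, H2afx, Pax9 and Fgf8 in both, beside 17.7% of all genes in vivo and 65.8% in vitro. Pax3 and Pax9 were under the edgeR filter in vivo. In vitro the largest increases were Pax3 at 3.77 (SE 0.31) and Pax9 at 3.16 (SE 0.30), paired-box factors of muscle and pharyngeal precursors, with edgeR adjusted p of 4.23e-20 and 7.24e-17. The largest in vitro decreases were Skil at -1.70 (SE 0.09), a Ski-family corepressor, and Tle4 at -1.49 (SE 0.12), a Groucho corepressor, with edgeR adjusted p of 3.63e-34 and 7.87e-21. In vivo Fgf8 (4.30, edgeR adjusted p = 0.143) and Sall1 (3.04, SE 1.34, edgeR adjusted p = 0.297) were the largest and did not pass, nor did Skil (-1.09) and Ncor1 (-0.82). By list in vitro, 2 of 2 Pax partners tested were higher, of 9 listed, and these were Pax3 and Pax9. For cofactors 4 of 11 were higher and 4 lower, and 5 of 7 described downstream genes were higher and 2 lower. Of all genes tested in vitro, 37.8% were called higher and 40.1% lower. The 3 relatives Six3, Six6 and Dach2 were not tested by the filtered edgeR fit in either source, whereas DESeq2 called Dach2 in vivo.

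Across the in vitro RFP+ libraries (39 after 7 near-identical wells in plate columns 3 and 4 were summed with their partners), correlations with other genes were given as a description, since libraries share depth and plate. The most similar genes to Six2 among 9939 were Ankra2 (Pearson r 0.60), Col2a1 (0.58) and Wbp1 (0.56). For Six4 they were Sp1 (0.57), Cdt1 (0.56) and Pde6d (0.56), and for Eya1 Arfgap1 (0.69), Sirpa (0.61) and Coa5 (0.57). Eya2 was nearest to Vps37c (0.57), Traf3ip2 (0.53) and Akr7a5 (0.53), Eya3 to Elac2 (0.67), Cct7 and Hsp90ab1, and Dach1 to 2810408A11Rik (0.65), Zzz3 and 2310022B05Rik. Over the 15 pairs of members r ran from -0.22 to 0.41, the highest being Six2 with Six4, and with the wells kept separate 11 of the 18 named genes were named again.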

How the data were processed

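Members and lists were chosen with earlier results of these data known. Sorted 10-cell wells were sequenced from cDNA amplified by a SMART protocol. Per the labels and the study's methods, the authors trimmed reads with Trimmomatic 0.36, aligned them with HISAT2 2.0.4 to mm10 (GRCm38) and deposited whole-number counts per gene from featureCounts 1.5.2, not normalized. No strand setting is given in the sources used here, and no exon of another GENCODE M21 gene overlapped a member. From the deposited counts, edgeR 4.0.16 (R 4.3.3) fitted each comparison with its own 2 groups (TMM, filterByExpr with a minimum count of 10, quasi-likelihood test, adjusted p under 0.1). Levels are CPM with TMM factors from all 93 libraries. Permutation tests used log2 CPM with a prior count of 2, two-sided, raw p for the 8 members in each source, exact over 126 splits in vivo and 100000 resamples in vitro. The difference test used 7 degrees of freedom. Intervals are exact at 95% and, like floors of 3 reads, cover counting error only. Alternatives used limma 3.58.1 (voom) and DESeq2 1.42.0.

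Named genes were all members, other network genes called the same way in both sources with the 2 largest log2 fold changes each way in each source, the 3 genes most correlated with each member over in vitro RFP+ wells, and the reporter genes. Neighbouring wells in columns 3 and 4 (7 pairs) had chi-square per degree of freedom of 1.33 to 2.29 against 3.07 to 8.28 for 29 other pairs, more than sampling noise, so they were kept separate in the fits and summed for the correlations. The fitting code was tested on simulated data. Totals from 6288 to 5658882 reads set the precision. 1 further family gene is not reported here.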

Additional observations from a re-analysis of the deposited data

Results flagged for a closer look

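Among the 16 sets of in vivo libraries examined (8 members in GFP+ and RFP+ cells), 8 held a library standing apart from the rest by the gap to its nearest neighbour over the whole range. Chance gives this in about 1 of 20 sets of continuous values, but reads in only 1 of 5 libraries give it by construction, as for Six2, Six4, Six5, Eya4 and Dach1 in GFP+ cells, so that rate does not apply to them. Nor does it apply to Eya4 in RFP+ cells, where reads of 1, 3, 1 and 1 are nearly tied. The same holds for Eya1 in GFP+ cells, where reads of 0, 145, 1, 0 and 0 hold ties. For Eya2 in RFP+ cells, with reads of 2, 1, 11 and 3, the rate is at best approximate. In GFP+ libraries the values standing apart were Six2 at 2.15 CPM and Six5 at 56.0 CPM in well A12, Eya1 at 62.7 CPM in B12, Six4 at 2.48 CPM in C12, and Eya4 at 6.54 CPM and Dach1 at 39.7 CPM in D12. The Six2 and Six4 values are 2 reads each. In RFP+ libraries they were Eya2 at 9.29 CPM in G12 and Eya4 at 2.11 CPM in G11.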

How the results depend on the processing

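In vitro reporter calls kept their direction and side of the threshold under all alternatives run for the 6 members tested. In vivo, limma voom called 4 members (Six2, Six4, Eya1 and Dach1) in place of 2, while calling 26.7% of all genes in place of 10.1%. Leaving out 1 library gave 0 to 3, with 7.01% to 12.8% of all genes called. DESeq2 called Six2, Six4 and Eya3 (adjusted p = 0.0836), beside 17.7% of all genes, and gave no adjusted p for Eya1 and Dach1. In the GFP+ source comparison voom called 1 of 4 members, beside 19.4% of all genes. Without a filter 5 of 8 were called, beside 55.8%, against 3 of 4 and 68.0% in the main fit. In the RFP+ source comparison voom called 2 of 8, beside 19.1% of all genes. A threshold of 0.05 called 3, beside 3950 of 11147 genes. Leaving out 1 library gave 2 to 6, beside 35.7% to 38.7%, against 6 and 42.6% in the main fit. Other network genes called in vivo numbered 6 of 24 with DESeq2, 7 of 20 with voom and 6 of 32 without a filter, against 1 of 20. These settings called 17.7%, 26.7% and 13.2% of all genes, against 10.1%. With 1 library left out the number was 1 to 2. In vitro 31 of 41 were called without a filter, beside 60.1% of all genes, against 17 of 20 and 77.9%. The difference between sources called 3 members with an interaction term, beside 54.4% of all genes. It called 0 to 2 with 1 library left out, beside 3.21% to 8.97%, against 0 and 5.68% in the main test. The Dach1 GFP+ source fold change (0.06) turned to -0.30 with DESeq2 size factors, -0.039 with total counts, -0.27 with DESeq2, -0.018 with in vitro libraries of at least 1000000 reads, and -0.31, -0.25, -0.26 and -0.31 without GFP+ wells A12, B12, C12 and E12. Without D12 it was 6.84 (edgeR adjusted p = 3.78e-05), with no in vivo GFP+ read left, so that size is not a measured ratio. The Six5 RFP+ source fold change (-0.55) turned to 0.53 with voom and 1.27 without well G12, and ranged from -0.94 to 1.27 with 1 library left out. Where a value changed, the cause was not tested. No paired analysis was possible because the labels give plate wells and no replicate numbers shared between groups. Counts were low for Six5, Eya2 and Eya4, with in vivo RFP+ libraries of 1 read, and for Six2 and Six4 in GFP+ cells, with 2 reads each.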
